A study of Cucumis sativus with 11 samples.

Results

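Leaves of cucumber (Cucumis sativus, cultivar JinYou 1) that had received 75 mM sodium chloride were compared with leaves of untreated control plants, to ask which transcripts stood higher or lower under salt alone. The comparison took the 3 salt and the 3 control libraries, 6 of the 11 libraries of the study, and the 16682 of 20165 listed gene IDs that reached 1 RPKM or more in at least 2 of those 6. RPKM relates the reads of a gene to its length and to the mapped total of its library, so levels of different genes are given per length. Seedlings grew in nutrient solution, salt was added to it for 3 days, and each library came from 3 recently expanded leaves mixed into 1 biological replicate. Neither group received silicon. The other 5 libraries, 2 from plants given 0.3 mM silicon as sodium silicate and 3 from plants given salt and silicon together, entered the estimate of the spread and are used below where the salt effect is set beside that in silicon-fed leaves.

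Salt in the root medium first lowers the water available to a plant and later loads its leaves with sodium and chloride. Leaves are known to answer with the hormone abscisic acid, stomatal closure, compatible solutes such as proline, sequestration of sodium in the vacuole, enzymes that remove reactive oxygen, and lower expression of genes for photosynthesis and growth. Which of these responses the genes below belong to cannot be said here, because the deposited IDs come with no gene names, and none could be found in the RefSeq table used (0 matches of 20165 IDs against 23999 genes). For the same reason the leaf label was not checked against marker genes, gene lists by product name could not be applied, and genes are described by level, size and direction of change. In whole leaves, fewer cells of a type and less RNA per cell cannot be told apart.

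The control and salt libraries separated along the main axis of variation. On the first principal component of the 6 libraries, which held 38.2% of the variance of log2(RPKM + 1), the controls lay at -41.7, -50.2 and -55.98 and the salt libraries at 58.0, 32.7 and 57.1. Salt 2 lay nearest to the controls on that axis and far from every other library on the second, at 69.9 against -35.7 to 33.9. Control 1 stood alone on the third, at 68.5 against -37.2 to 14.9. Across genes, which are not independent replicates, libraries of the same group correlated at 0.900 to 0.947 and libraries of different groups at 0.861 to 0.892.

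**Figure D1:**
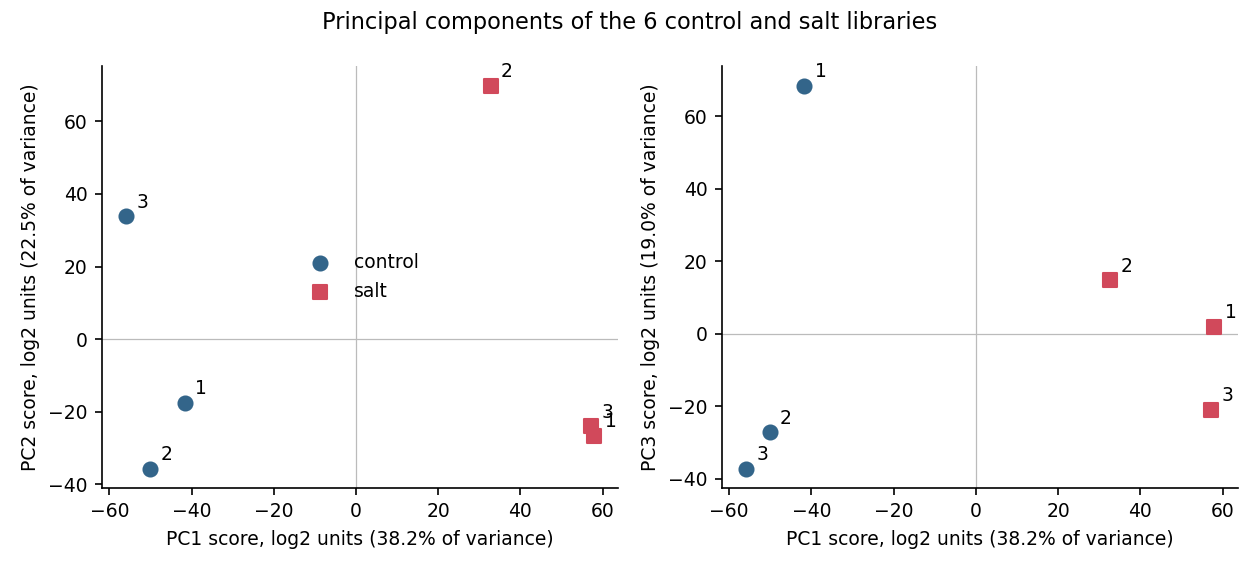
Scores of the 3 control libraries (circles) and 3 salt libraries (squares) on the first principal component (x axis, 38.2% of variance) against the second (left, 22.5%) and the third (right, 19.0%), in log2 units, numbered by replicate. Groups separate on the first axis, salt 2 stands apart on the second at 69.9 and control 1 on the third at 68.5.

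Summed RPKM was lower in the salt libraries, at 984515, 1015280 and 974471, than in the controls, at 1117430, 1107510 and 1062790, without overlap. The exact permutation test gave p = 0.10 (two-sided, n = 3 each), the smallest p that 3 against 3 libraries can give. The 10 highest genes of a library together held 15.4%, 20.4% and 19.9% of its summed RPKM in the controls and 14.0%, 14.3% and 14.6% in the salt libraries (exact permutation p = 0.10, n = 3 each). In silicon-fed leaves they held 12.1% and 12.0% with silicon and 15.6%, 14.1% and 13.7% with both. For the 100 highest genes the groups overlapped, at 36.8% to 46.0% and 34.6% to 37.7% (exact permutation p = 0.20, n = 3 each). The median RPKM of a library overlapped too, at 6.53 to 8.63 and 7.64 to 9.46 (exact permutation p = 0.40, n = 3 each). Groups overlapped in the number of genes listed at 0, with 1958 to 2397 in the controls and 2078 to 2181 in the salt libraries (exact permutation p = 0.60, n = 3 each). They overlapped also in the number at 1 RPKM or more, with 15241 to 16095 and 15424 to 16236 (exact permutation p = 0.60, n = 3 each). Over all tested genes, the log2 change with salt had a median of 0.12 in the deposited values. It was -0.02 once libraries were scaled by their median ratio and 0.03 once they were quantile-normalized, so small changes depend on the scaling.

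With salt, 1651 genes passed the test (limma, adjusted p under 0.05), 9.9% of those tested. Of these, 1100 were higher (6.59%) and 551 lower (3.3%) than in control leaves. The log2 change had a median of 1.01 over the higher genes and -1.33 over the lower ones, sizes that are raised by the choice of these genes for their change. Median-ratio scaling of the libraries gave 774 higher against 880 lower calls and quantile normalization 839 against 689, so which direction held more genes depends on the scaling. The sign of the change in single genes did not: under both scalings all 1100 higher genes kept a positive and all 551 lower genes a negative change. The scalings shifted the median over all tested genes by little beside the changes of called genes, so kept signs say little. The calls held less well. Under median-ratio scaling 753 of the 1100 higher and 542 of the 551 lower genes were still called, and under quantile normalization 786 and 509. Of the 1651, 1589 remained when genes listed at 0 in any of the 6 libraries were left out, and 2089 genes were called without control 1 and salt 2 together. The count rests on the spread shared with the 5 silicon-fed libraries and on single libraries: it was 351 (2.1%), 194 higher and 157 lower, when the 6 libraries were fitted alone, 507 without control 2, 671 without salt 1 and 636 without salt 3. Of the 351, 341 were among the 1651.

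The genes named here were picked for a large change in RPKM and do not stand for abundant genes in general: in the highest of 5 equal classes by mean RPKM, the median absolute log2 change was 0.38. They were the 2 genes with the largest rise and the 2 with the largest fall of the group mean, among the 975 called genes that changed 2-fold or more and whose 6 libraries did not overlap. Their levels are shown by library in the plot of named genes.

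Csa7G037540 gained most. It stood at 235, 289 and 199.6 RPKM in the controls and at 1087, 2553 and 2040.3 RPKM in the salt libraries. All salt libraries lay far above the highest control, and salt 1 was the lowest of the salt libraries. The mean rose from 241 ± 44.8 to 1893 ± 744 RPKM (SD, n = 3 each), or 2.90 ± 0.30 in log2 fold change (SE, limma adjusted p = 0.00193). The call held under all 16 alternatives, with a highest adjusted p of 0.0163 in the 6-library limma fit.

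Csa4G167980 stood at 499.8, 273 and 136 RPKM in the controls and at 1075, 1085 and 1887 RPKM in the salt libraries. The groups did not overlap, but the controls themselves ranged widely and control 1 was the highest of them. The mean rose from 303 ± 184 to 1349 ± 466 RPKM (SD, n = 3 each), or 2.29 ± 0.45 in log2 fold change (SE, limma adjusted p = 0.0163). The limma call was lost when only the 6 libraries were fitted (adjusted p = 0.0676), without control 2 (0.0551) and without salt 3 (0.0568), and held under the other 13 of 16 alternatives.

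Csa5G367180 lost most RPKM and was the sixth highest gene by its mean over all libraries. It stood at 11279.9, 16580.3 and 15059 RPKM in the controls and at 7159, 4963 and 4856 RPKM in the salt libraries. All 3 salt libraries lay below the lowest control, and control 1 and salt 1 were the libraries nearest to the other group. The mean fell from 14306 ± 2729 to 5659 ± 1299.6 RPKM (SD, n = 3 each), or -1.34 ± 0.36 in log2 fold change (SE, limma adjusted p = 0.0447). This limma call is close to the threshold and was lost under 10 of 16 alternatives, among them quantile normalization (log2 fold change -0.87, adjusted p = 0.134), the 6 libraries fitted alone (0.0690), and the fits without control 2 (0.128), control 3 (0.0977), salt 1 (0.0704), salt 2 (0.0816) or salt 3 (0.121).

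Csa7G450510 stood at 4654, 7469.9 and 6085 RPKM in the controls and at 1206, 1012 and 1055 RPKM in the salt libraries. The salt libraries lay close together and far below every control. The mean fell from 6069.6 ± 1408 to 1091 ± 101 RPKM (SD, n = 3 each), or -2.45 ± 0.41 in log2 fold change (SE, limma adjusted p = 0.00987). The call held under all 16 alternatives, with log2 fold changes from -2.63 to -2.09 and a highest limma adjusted p of 0.0434.

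**Figure D2:**
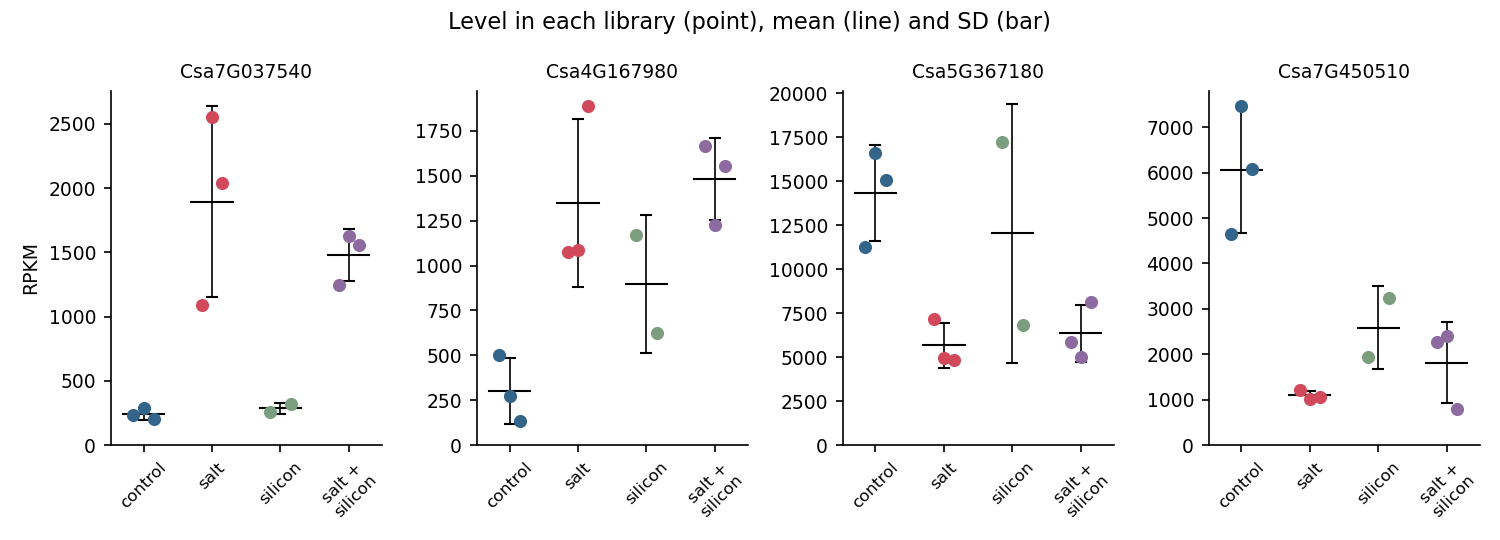
RPKM (y axis, from 0, a scale of its own in each panel) of 4 genes in libraries of all 4 groups, with 1 point a library, the group mean as a line and the SD as a bar. In all panels the 3 salt libraries lie apart from the 3 controls, with Csa7G037540 at 1087 to 2553 against 199.6 to 289 RPKM.

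Most changes were moderate in size. On the log2(RPKM + 1) scale, which understates the change of low genes, 980 called genes (5.87% of those tested) changed 2-fold or more, 559 of them higher and 421 lower. Changes of 4-fold or more were found in 118 higher and 103 lower genes, of 8-fold or more in 49 and 21, and of 16-fold or more in 12 and 8. Called genes listed at 0 in any of the 6 libraries, 41 higher and 21 lower, were not left out of the counts by size. Calls under 2-fold made up 49.2% of the higher but 23.6% of the lower genes. The 2-fold balance also turned with the scaling, to 387 higher against 616 lower genes under median-ratio scaling and to 420 against 524 under quantile normalization. For 168 higher and 140 lower genes the whole 95% interval of the change lay past 2-fold.

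**Figure D3:**
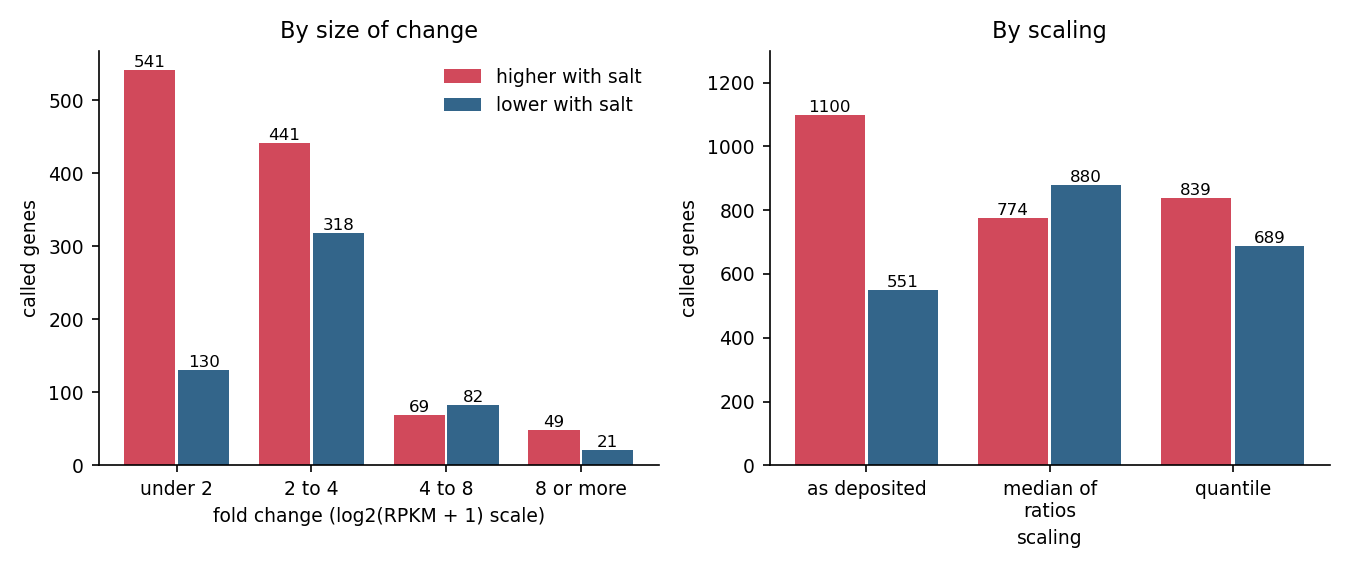
Number of called genes (y axis, from 0) that were higher or lower with salt, by size of the fold change with values as deposited (left) and by scaling (right). Calls under 2-fold number 541 higher and 130 lower, and the balance goes from 1100 higher and 551 lower as deposited to 774 and 880 under median-ratio scaling.

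The intervals here are per gene and not adjusted for the number of genes, unlike the calls. They are on the log2(RPKM + 1) scale, so for low genes an interval within 2-fold can hide a larger change in RPKM. For 7993 genes that did not pass the test, the 95% interval of the log2 change lay within 2-fold in either direction. For 7038 others (42.2% of those tested) that did not pass, the interval reached past 2-fold in at least 1 direction. In all, 1160 genes had a fitted change of 2-fold or more that did not pass the test. The 3 salt and 3 control libraries did not overlap in 4980 genes (29.9% of those tested), 3438 of them higher and 1542 lower with salt. The 1651 called genes were without overlap in 1646 cases, which adds no support because the same libraries were used to call them. Before adjustment 4993 genes, 29.9%, had a limma p under 0.05.

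Calls were found at every level of expression and were fewest among low genes. Tested genes were split into 5 level classes of equal size by their mean RPKM over all libraries. Calls made up 4.68% of the lowest class (0.200 to 3.84 RPKM), 9.71%, 11.1% and 12.2% of the next ones, and 11.8% of the highest (from 44.9 RPKM up). The median SE of the log2 change was 0.33 in the lowest class and 0.23 in the highest, so the classes also differ in precision. Lower calls took the largest part in the highest class, with 209 higher and 186 lower genes, against 243 and 81 in the second lowest. Median-ratio scaling gave 143 higher and 299 lower calls in the highest class, but quantile normalization 222 and 158, so this pattern of direction depends on the scaling. Among the 100 genes with the highest mean in the 6 libraries, 1 was called higher and 12 lower. The counts were 0 and 10 under median-ratio scaling, and 3 and 2 under quantile normalization.

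**Figure D4:**
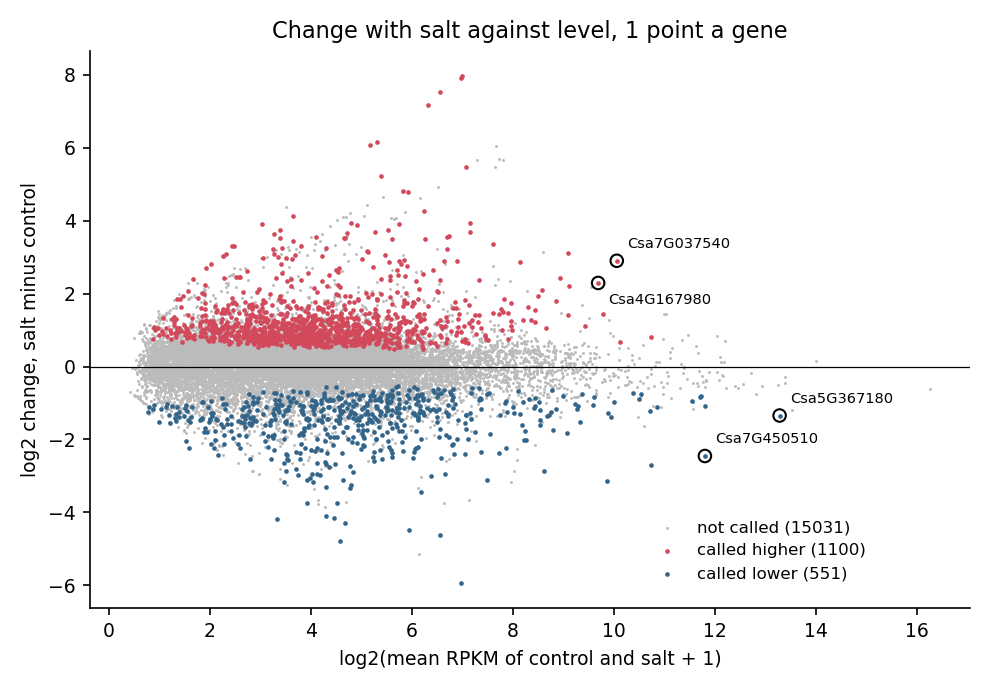
Log2 change with salt (y axis, salt minus control) against the log2 mean level of control and salt libraries (x axis, log2(RPKM + 1)), 1 point for each of 16682 genes. Called genes, 1100 higher and 551 lower, lie at all levels, and the 4 circled genes are among the most abundant of them.

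The called genes shifted the make-up of the transcript pool. Genes called higher held 2.28%, 2.01% and 1.97% of summed RPKM in the controls and 6.13%, 5.76% and 6.22% in the salt libraries. Genes called lower held 8.45%, 10.2% and 9.94% in the controls and 4.22%, 4.44% and 4.22% in the salt libraries. These genes were picked for their change in the same libraries, so the shares describe its size and were not tested. In the deposited values, group means fell by 61802 RPKM in sum over the 551 lower genes and rose by 36914 RPKM in sum over the 1100 higher ones. Over all listed genes they fell by 104489 RPKM in sum, so most of that fall lay in genes that were not called. RPKM is already related to the mapped total of a library, so such sums are not amounts of RNA.

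All 3 salt libraries took part in the called changes, to unequal degrees in the deposited values. Median-ratio scaling factors were 0.99 for salt 1, 1.14 for salt 2 and 0.94 for salt 3. For control 1, control 2 and control 3 they were 1.03, 0.82 and 0.92. The order of libraries below was not taken after scaling and may depend on it. Measured against the control mean, the median log2 difference over the 1100 higher genes was 1.05 in salt 1, 0.98 in salt 2 and 0.97 in salt 3. Over the 551 lower genes it was -1.37, -1.10 and -1.47, so salt 2 was lowered least before scaling. Salt 2 was the salt library nearest to the controls in 303 of the 551 lower genes, salt 1 in 158 and salt 3 in 90. In the 1100 higher genes it was salt 3 in 412, salt 2 in 380 and salt 1 in 308. Among the controls, control 1 was nearest to the salt mean in 641 of the 1100 higher genes, control 2 in 187 and control 3 in 272. In the 551 lower genes it was control 3 in 248, control 1 in 188 and control 2 in 115. Without salt 2 the number of lower calls was 927 in place of 551.

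Some genes were listed at 0 in 1 group alone. There were 22 genes at 0 in all 3 controls with 1 RPKM or more in all 3 salt libraries, of which 14 were called, and 5 with the opposite pattern, of which 4 were called. The 22 had salt values from 1.09 to 328 RPKM. An exact 0 also stood beside high values within a group: 110 genes had 1 control at 0 and the others over 10 RPKM. In the same way, 91 genes had 1 salt library at 0. Whether such zeros are failed estimates or true absence was not tested. Of the 27 genes at 0 in 1 group, 23 were at 0 in some and above 0 in others of the 5 silicon-fed libraries, 3 were above 0 in all of those and 1 was at 0 in all. No fold change is given for these genes singly, though the called ones are in the counts by size of change.

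Called genes were found at similar shares throughout the numbered ID series. The share of tested IDs called ran from 9.32% for IDs that begin with Csa1G to 10.4% for Csa7G, with the other 5 numbered series between. IDs that begin with CsaUNG had 6 calls among 85 tested. Where a called gene was followed by a tested ID with the next number (a step of 10), a larger share of followers was called in the same direction than over followers in general. Of 713 higher genes with such a follower, 75 (10.5%) were followed by a higher gene, against 6.56% of all 10950 followers. Of 332 lower genes, 21 (6.33%) were followed by a lower gene, against 3.29%. Opposite directions were found in 36 pairs, at shares of 3.51% and 3.31%. The longest run held 5 consecutive IDs, all higher, with log2 changes from 0.77 to 5.22. These are descriptions without a test. The files do not say whether consecutive IDs are neighbours on a chromosome, and in libraries that do not keep strand the reads of overlapping genes cannot be told apart.

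The silicon-fed plants give a comparison of salt with no salt whose group means share no library with the one above. Both comparisons use the same estimate of the spread of a gene, taken over all 11 libraries, so their calls are not independent. There 1491 genes were called between salt plus silicon and silicon leaves (8.94%), 427 higher (2.56%) and 1064 lower (6.38%). Of the 1100 genes called higher with salt alone, 886 (80.5%) also had a higher mean with salt in silicon-fed leaves, where 50.4% of all tested genes did. Of the 551 called lower, 431 (78.2%) also had a lower mean, where 49.3% of all tested genes did. With quantile normalization these shares were 85.9% beside 60.0% and 72.1% beside 39.7%. Past the test in both comparisons were 217 higher genes, 19.7% of the list with salt alone and 50.8% of the list in silicon-fed leaves, and 124 lower genes, 22.5% and 11.7%. Opposite calls were found in 22 genes that were higher with salt alone and in 0 that were lower. The group medians were smaller in the silicon-fed leaves, at a log2 change of 0.37 for the higher and -0.52 for the lower genes, beside 0.01 over all tested genes. The genes were picked for a large change without silicon, which by itself makes the second values smaller.

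Same-sign counts were also taken by size of change. Of 82 genes lowered 4-fold to 8-fold, 80 were lower with salt in silicon-fed leaves too, and of 21 lowered 8-fold or more, 19 were. Of 318 lowered 2-fold to 4-fold, 252 were, and of 130 lowered less than 2-fold, 80 were. Among the higher genes the counts were 431 of 541 under 2-fold, 360 of 441 from 2-fold to 4-fold, 59 of 69 from 4-fold to 8-fold and 36 of 49 at 8-fold or more. Of the 49, 13 did not have a higher mean with salt in silicon-fed leaves.

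The difference between the salt effects without and with silicon was itself tested in the same limma fit. It passed in 200 of 16682 genes (1.2%), and 61 of these were among the 1651 called with salt alone, 46 higher and 15 lower. The tested difference contains salt minus control, so genes picked for that change are by construction more likely to pass. The count of 200 fell to between 5 and 20 when any library but control 1 or salt 2 was left out, rose to 1065 without control 1 and to 359 without salt 2, and was 14 with the replicate number as a block. Without silicon 1 (6 calls) or silicon 2 (20 calls) the silicon group is a single library, assumed to vary like the other groups. None of the 4 named genes passed this test. For Csa7G037540, at 255 and 318 RPKM with silicon and 1247, 1630.02 and 1561 RPKM with both, the salt effect in silicon-fed leaves was 2.36 ± 0.33 in log2 units (SE, limma adjusted p = 0.00380). Its difference from the effect without silicon was 0.53 (95% interval -0.47 to 1.53). For Csa7G450510, at 1941 and 3236 RPKM with silicon and 2264, 2406 and 783 RPKM with both, the effect was -0.63 ± 0.46 (limma adjusted p = 0.460) and the difference -1.82 (95% interval -3.20 to -0.45, adjusted p = 0.154). The libraries given silicon alone overlapped with those given both in this gene, and lay below every control. Csa4G167980 stood at 1169 and 624 RPKM with silicon, above every control, and at 1665, 1227 and 1555 RPKM with both. Its salt effect in silicon-fed leaves was 0.78 ± 0.50 (SE, limma adjusted p = 0.391). The difference in effect was 1.51 ± 0.67 (SE, 95% interval 0.01 to 3.00, limma adjusted p = 0.258). Csa5G367180 stood at 17244 and 6842 RPKM with silicon and at 5871, 4989 and 8155 RPKM with both. Its salt effect in silicon-fed leaves was -0.81 ± 0.40 (SE, limma adjusted p = 0.261). The difference in effect was -0.54 ± 0.54 (SE, 95% interval -1.74 to 0.67, limma adjusted p = 0.626). Its 2 silicon libraries lay on either side of the control range.

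**Figure D5:**
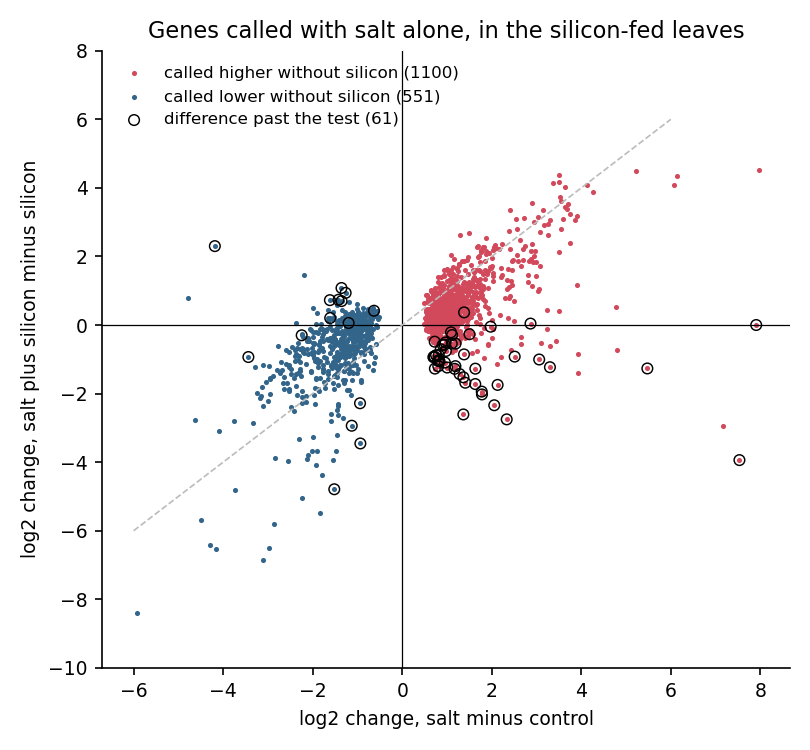
Log2 change with salt in silicon-fed leaves (y axis, salt plus silicon minus silicon) against the change without silicon (x axis, salt minus control) for the genes called with salt alone, 1100 higher and 551 lower, with equal change on the dashed line. Same-sign genes number 886 and 431, and circles mark the 61 genes whose difference between the effects passed the test.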

How the data were processed

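The names of the deposited tables give their unit as RPKM, with 1 table a library. TopHat2 is a tool listed in the submitters' processing notes; for its version and settings, the counting program, the genome build and the annotation the sources used here give nothing. Libraries were made from poly(A) RNA without keeping strand, per the labels' protocols. The absolute depth is unknown because the files hold no counts, and no counting intervals are given. Among values under 0.2 RPKM, ratios close to 1 put the relative depth of the 6 libraries between 0.880 (salt 2) and 1.08 (salt 3) of control 1, so a large difference could not show. Low values kept no exact ratio between libraries, and whole reads were not recovered. Libraries shared at most 1 identical value above 0 with each other.

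Values were used as log2(RPKM + 1). Group means of all 11 libraries (7 residual degrees of freedom; 4 with the 6 libraries alone) entered 1 fit (R 4.3.3, limma 3.58.1, mean-variance trend, without a block), tested two-sided with Benjamini-Hochberg adjustment over 16682 genes and a threshold of 0.05. The procedure was tested on simulated data. Single values per library were compared by exact permutation. The labels call the libraries biological replicates, each a mix of 3 leaves. Named genes were the 2 that rose and 2 that fell most in mean RPKM among called genes of 2-fold or more without overlap. Alternatives were other scalings, a pseudocount of 0.1, other filters, robust moderation, a replicate block, the 6 libraries alone and each library left out. The libraries, lists and tests were chosen with earlier results of these data known. Plots were drawn with Python 3.11.15, pandas 2.3.3, numpy 2.4.6 and matplotlib 3.10.9.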

Additional observations from a re-analysis of the deposited data

Results flagged for a closer look

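The effect of salt differed between leaves without and with silicon in 200 of 16682 genes (1.2%) by the test of the difference (limma, adjusted p under 0.05). Before adjustment 3195 of 16682 genes had a limma p under 0.05, where 5% of tested genes would on average if no effect differed. Genes of 1 library are not independent, so this count is not read as support for differing effects. The change with salt was more positive without silicon in 185 of the 200 and more positive with silicon in 15. Over all tested genes the deposited values lean the same way, with a median log2 change of 0.12 without silicon and 0.01 with it. The split is not given for other scalings, and the count of 200 ran from 5 to 1065 with 1 library left out.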

How the results depend on the processing

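Of 17 alternatives, 13 gave a number of salt calls within 1.5 times of 1651. The exceptions were the 6 libraries fitted alone, with 351 calls (194 higher, 157 lower), and the fits without control 2, salt 1 or salt 3. With 1 of the 6 libraries left out, calls ran from 507 to 2026, higher calls from 316 to 1319 and lower calls from 191 to 927. Higher calls also numbered 684 without control 3, and lower calls 880 after median-of-ratios scaling. Without genes at 0 (1589) and without control 1 and salt 2 (2089, of which 1342 higher and 747 lower) were chosen after seeing the data. The difference between the salt effects was called in 121 genes with the smaller pseudocount, 308 without a filter and 5 to 1065 with 1 library left out. The causes were not tested, though fits with fewer libraries have fewer degrees of freedom. No named gene changed direction. Deviations of same-numbered libraries of different groups correlated at -0.21 (control 2 and salt 2) to 0.17, above 0.1 in 6 of 15 pairs and not in all, so the numbers were not taken to pair the libraries. With a replicate block 1246 genes were called with salt (761 higher, 485 lower) and 14 for the difference, and the call for Csa5G367180 was lost (limma adjusted p = 0.0649). Of the 3 libraries in each of both groups, 1 correlated best with its own number. Depth is unknown, so precision at low levels could not be separated from variation between plants.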
